A study of Homo sapiens with 6 samples.

Results

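The genes described here are 10 genes of the MHC class II pathway: the peptide-binding chains HLA-DRA, HLA-DPA1 and HLA-DPB1, the peptide editor chains HLA-DMA and HLA-DMB, the invariant chain gene CD74, and the regulators CIITA, RFX5, RFXAP and RFXANK. They are 10 of the 19777 genes measured, and every probe set annotated to 1 of them and to no other gene was taken, which gave 20 of 41091 single-gene probe sets. Transcript levels were read from 6 single-colour whole-genome arrays of MDA-MB-231 cells, an established human breast cancer line without estrogen receptor. In 3 samples the cells had received a non-targeting siRNA, and in 3 samples a single siRNA against ING2, both with the same lipid reagent. ING2 is a PHD finger protein found with SIN3 and histone deacetylases. According to the treatment text RNA was taken at 4 days, according to the extraction text at 3 days, and 1 siRNA stands for the knockdown throughout. The genes were selected on their differences between these same arrays, so those differences are given as a description. The limma calls given for these genes below are no independent test.

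MHC class II molecules present peptides from the endosomal pathway to CD4+ T cells, and are made mainly by B cells, dendritic cells and macrophages, and by other cells after interferon gamma. An alpha chain (HLA-DRA, HLA-DPA1) pairs with a beta chain (HLA-DPB1 for HLA-DPA1), the invariant chain CD74 guides the pair to the endosome, and HLA-DM exchanges the remnant of CD74 for peptide. Their promoters share an X box, bound by the RFX complex of RFX5, RFXAP and RFXANK, and a Y box, bound by NF-Y. CIITA binds no DNA itself and is the coactivator that these factors recruit.

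The targeted gene ING2 was measured at 1399.7, 1348.9 and 1323.6 intensity units on the 3 control arrays and at 162.7, 188.1 and 160.5 units on the 3 ING2 siRNA arrays. It fell to 12.5% of control (log2 difference -2.997, SE 0.09, limma adjusted p = 1.85e-07). A second, dim ING2 probe set, at 73.1, 111.2 and 93.7 units in controls and at 34.6, 40.1 and 26.8 units after ING2 siRNA, was at 36.5% of control, and the mean of both probe sets gave a log2 difference of -2.22. Median intensity per array lay between 75.6 and 81.4 units and precision is limited by the number of arrays. Differences are given as ING2 siRNA minus control on the log2 scale, and the median over all genes was 0.065. It depended on intensity, at 0.15 in decile 3 of genes by mean intensity and -0.09 in decile 10, the brightest. Vimentin (VIM), abundant in this line, was at 15520 units in controls and the estrogen receptor gene ESR1, which the line lacks, at 104.4 units. Whether the replicates come from separate cultures is not stated, so standard errors and p-values reflect only the scatter of these samples, possibly technical.

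All 5 genes of the peptide-binding and HLA-DM chains were lower on each ING2 siRNA array than on any control array, at 57.6% to 79.6% of control. Lower groups without overlap were found for 13.8% of all genes, 29.9% in decile 9 and 36.1% in decile 10. These 5 genes were chosen on their differences. HLA-DRA, the alpha chain of HLA-DR, was furthest from its control level. Its brighter probe set read 2396.4, 2299.6 and 2556.1 units on the control arrays and 1683.8, 1312.6 and 1220.8 units on the ING2 siRNA arrays. The groups did not overlap, and ING2 siRNA replicate 1 lay nearest the controls. The ING2 siRNA level was 57.6% of control, a log2 difference of -0.79 (SE 0.12, n = 3 per group). The other HLA-DRA probe set was at 1087.8, 1028.8 and 1143 units in controls and at 781.2, 621.1 and 564.3 units after ING2 siRNA, or 59.8% of control. Both HLA-DRA probe sets thus ordered the 3 ING2 siRNA arrays alike. In bulk samples such as these, fewer cells with the transcript and less of it per cell cannot be told apart.

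HLA-DPA1, the alpha chain of HLA-DP, was at 2301.7, 2139.8 and 2615.1 units in controls and at 1724.9, 1468.7 and 1572.6 units after ING2 siRNA, with no overlap. That is 67.6% of control, a log2 difference of -0.56 (SE 0.10). Its 2 other probe sets were at 71.1% and 61.4% of control, the latter on a dimmer probe set with control values of 194.5, 203 and 229 units. All 3 HLA-DPA1 probe sets therefore had groups that did not overlap. HLA-DPB1, the beta chain that pairs with HLA-DPA1, was at 675.8, 602.3 and 691 units in controls and at 494.5, 448 and 387.9 units after ING2 siRNA, or 67.4% of control (log2 difference -0.57, SE 0.11). The second HLA-DPB1 probe set was dim and had overlapping groups, with 32.7, 30.7 and 36.8 units in controls and 36.6, 32.9 and 26.7 units after ING2 siRNA. It was the only 1 of 9 probe sets for the 5 chain genes whose groups overlapped, and the share over all probe sets is not given here.

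HLA-DMB, the beta chain of the peptide editor, was at 577.2, 598.1 and 654.6 units in controls and at 488.6, 416.6 and 411.2 units after ING2 siRNA, which is 71.8% of control (log2 difference -0.48, SE 0.10). HLA-DMA, its alpha chain, had the smallest difference of the 5. Its values were 2177.4, 1885.2 and 2119.3 units in controls and 1810.7, 1555.9 and 1557.1 units after ING2 siRNA, or 79.6% of control (log2 difference -0.33, SE 0.10). The groups did not overlap for either gene, but the highest HLA-DMA value after ING2 siRNA lay close to the lowest control.

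**Figure D1:**
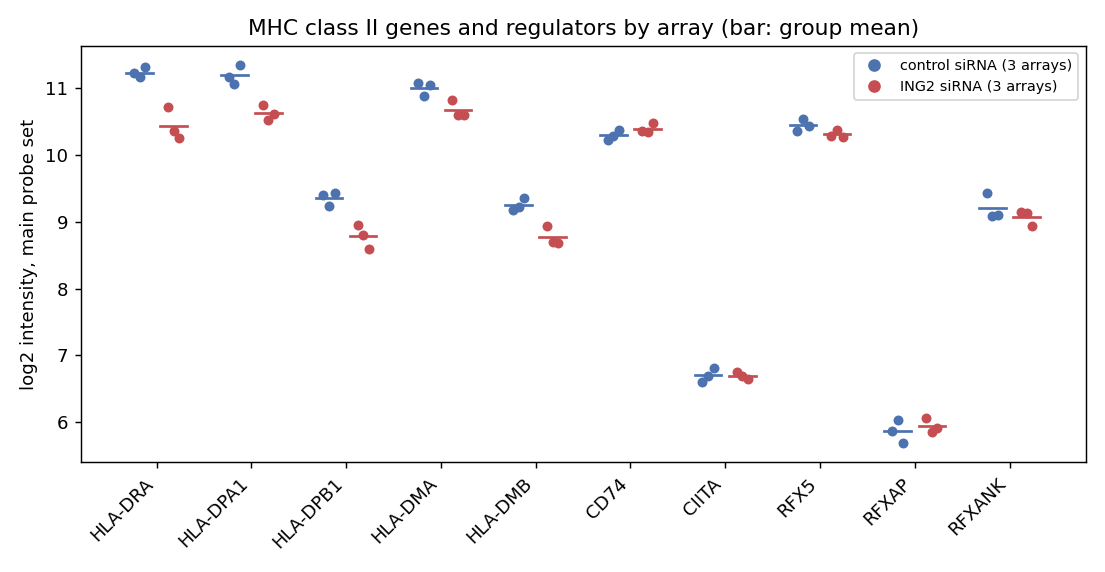
The y axis is log2 intensity of the brightest probe set of each of the 10 genes on the x axis; points are arrays, 3 after control siRNA and 3 after ING2 siRNA, and short bars are group means. The groups are apart for HLA-DRA, HLA-DPA1, HLA-DPB1, HLA-DMA and HLA-DMB and overlap for the other 5 genes.

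Promoter stretches of 4 of the chain genes, of CD74 and of the further class II genes HLA-DRB1 and HLA-DOB are shown so that the shared X and Y boxes can be seen beside the values. Of the 10 genes, 8 had a promoter window in RefSeq (GRCh38.p14), 300 bases long with 250 before the annotated start, and HLA-DRA and CIITA had none. Capitals mark the 9 letters AGNNACNGA, the core of the X box, and the letters ATTGG of the Y box, which read CCAAT on the other strand. Both were searched on both strands, and the letters of the X box core were chosen after the windows had been seen. Each stretch is written 5′ to 3′ along the gene.
HLA-DMA: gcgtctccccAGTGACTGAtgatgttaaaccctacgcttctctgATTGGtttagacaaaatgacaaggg
HLA-DMB: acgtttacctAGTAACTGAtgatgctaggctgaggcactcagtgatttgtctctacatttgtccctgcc
HLA-DPA1: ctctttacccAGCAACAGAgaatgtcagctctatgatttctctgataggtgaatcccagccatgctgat
HLA-DPB1: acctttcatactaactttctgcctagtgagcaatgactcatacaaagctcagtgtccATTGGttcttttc
HLA-DRB1: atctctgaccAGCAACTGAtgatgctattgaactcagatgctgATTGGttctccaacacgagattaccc
HLA-DOB: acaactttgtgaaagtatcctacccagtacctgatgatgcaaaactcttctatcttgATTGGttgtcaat
CD74: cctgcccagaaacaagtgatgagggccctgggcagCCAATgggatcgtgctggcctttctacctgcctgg

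These stretches lie upstream of the annotated starts at chr6:32953152-32953220 (HLA-DMA, minus strand), chr6:32941058-32941126 (HLA-DMB, minus), chr6:33073690-33073758 (HLA-DPA1, minus), chr6:33075834-33075903 (HLA-DPB1, plus), chr6:32589869-32589937 (HLA-DRB1, minus), chr6:32817088-32817157 (HLA-DOB, minus) and chr5:150412929-150412998 (CD74, minus). An X core was present in 15.3% of 35116 windows and a Y box in 34.6%. An X core with a Y box within 40 bases after it on the same strand was present in 0.515%, or 181 windows, of which 6 belonged to HLA-D genes. Of the 8 genes with a window only HLA-DMA held that pair of letter strings, with 25 bases between them. Of 6 further class II genes with a window, 5 held it: HLA-DRB1, with 24 bases between, HLA-DRB5, HLA-DQA1, HLA-DQB1 and HLA-DOA. Among these the log2 difference was -0.34 for HLA-DRB1, -0.31 for HLA-DQB1 on its brightest probe set, -0.003 for HLA-DQA1 and 0.10 for HLA-DOA. The other HLA-DQB1 probe sets had overlapping groups, at 89.3% to 111.9% of control, and HLA-DRB5 had no single-gene probe set. HLA-DMB and HLA-DPA1 held the X core alone in these stretches, and HLA-DPB1, HLA-DOB and CD74 the Y box alone. A letter match is a description and does not show binding, and a missing match says only that these letters are not in the window. Whether the letter strings go with the differences was not tested. HLA-DMA held the pair and had the smallest difference of the chains. HLA-DPB1, with the Y box alone in the stretch shown, was at 67.4% of control. HLA-DRA, furthest from its control level, had no window, and HLA-DPA1 had another window with neither string.

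CD74, the invariant chain, was not lower after ING2 siRNA. Its brightest probe set was at 1194.1, 1255.5 and 1324.2 units in controls and at 1316.3, 1299.3 and 1424.8 units after ING2 siRNA, with overlapping groups and a log2 difference of 0.10 (SE 0.08). A second, dim probe set was at 83.9, 83.1 and 89 units in controls and at 104.4, 95.3 and 97.8 units after ING2 siRNA, or 116.2% of control, with no overlap. The dimmest was at 111.1% of control with overlapping groups. All 3 CD74 probe sets thus had a mean above control, on the opposite side of 0 from the 9 probe sets of the chain genes. Dim genes as a whole lay above control, with a median log2 difference of 0.12 in decile 1 by intensity and 0.15 in decile 2. A rise of CD74 therefore cannot be read from its dim probe sets.

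CIITA, the coactivator on which class II transcription depends, was dim on all 3 of its probe sets, and they disagreed. The probe set with the highest mean was at 97.5, 103.8 and 112.9 units in controls and at 108.1, 103.4 and 99.8 units after ING2 siRNA, a log2 difference of -0.01 (SE 0.09). A second probe set was at 69, 70.2 and 70 units in controls and at 93, 85.4 and 89.4 units after ING2 siRNA, or 127.9% of control, with no overlap. The last was at 109.4% of control with overlapping groups. None of the CIITA probe sets was below 99% of control, but values this dim lie in the lower part of the array's range, at the 40.2nd percentile of genes for the first. Genes of that decile had a median log2 difference of 0.11. The first probe set read 104.5 units in controls, beside 104.4 units for ESR1, which the line lacks. A steady CIITA level therefore cannot be read from these values.

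RFX5, the DNA-binding subunit of the RFX complex, was at 1314.4, 1497.4 and 1379.6 units in controls and at 1251.7, 1330.9 and 1234 units after ING2 siRNA, or 91.1% of control with overlapping groups. Its second probe set was at 451.2, 424.3 and 456.1 units in controls and at 414.9, 356.1 and 412.5 units after ING2 siRNA, or 88.7% of control, with no overlap. RFXANK, the ankyrin repeat subunit, was also at 91.1% of control, but with a wide control spread of 690.2, 544.5 and 550.7 units against 568.3, 563.4 and 488.8 units after ING2 siRNA. RFXAP, the third subunit, was dim on both probe sets, at 105.8% and 98.8% of control, with overlapping groups on both. On the brightest probe sets the log2 differences of the 3 subunits were -0.13 (RFX5, SE 0.08), -0.13 (RFXANK, SE 0.11) and 0.08 (RFXAP, SE 0.10).

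**Figure D2:**
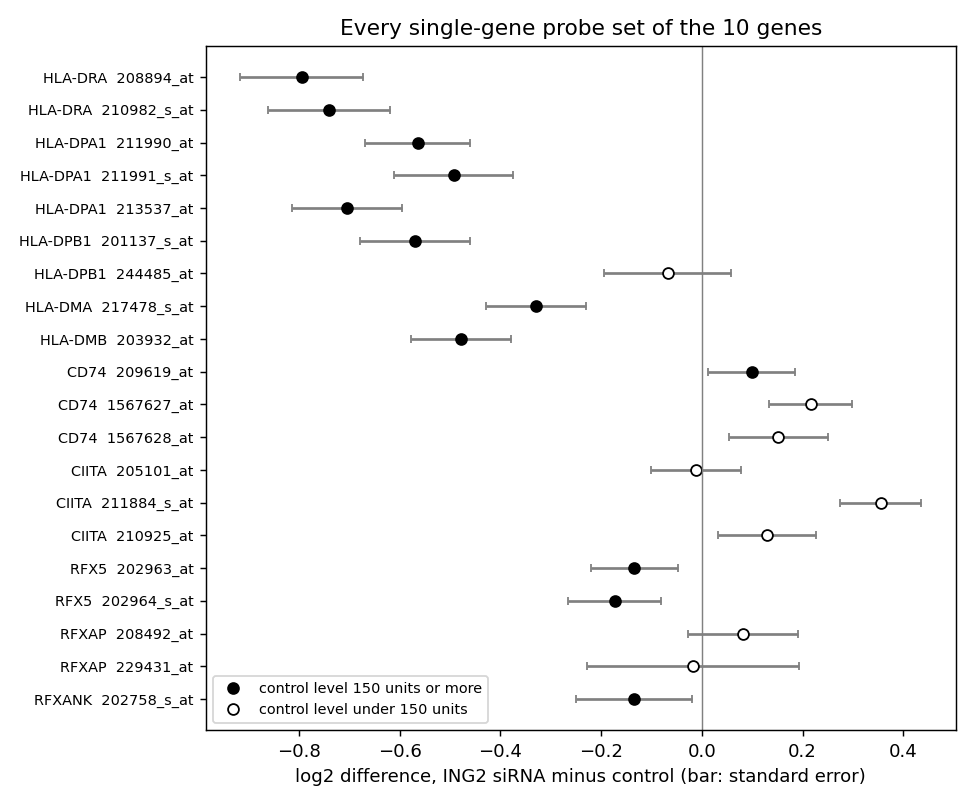
The x axis is the log2 difference, ING2 siRNA minus control, of each of the 20 probe sets on the y axis, with bars for the standard error; open points have a control level under 150 units. All 9 probe sets of the chain genes lie below 0, and the 3 of CD74 lie above it.

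In the fit over all genes, 4 of the 10 genes passed an adjusted p of 0.05 in the lower direction (HLA-DRA, HLA-DPA1, HLA-DPB1, HLA-DMB), where 4.67% of all genes did, and none in the higher direction, where 3.62% did. At an unadjusted p under 0.05, 5 were lower (13.6% of all genes) and none higher (19.4% of all genes) by limma, the only tool run. Groups did not overlap for 5 of the 10 in the lower direction (13.8% of all genes) and for none in the higher direction (22.8% of all genes). Of the 20 probe sets, 7 were called lower (5.12% of single-gene probe sets) and 1, a CIITA probe set, higher (2.18%). These counts follow from how the genes were chosen and nothing is read from them. The count of 4 fell to 0 without control replicate 2, control replicate 3 or ING2 siRNA replicate 3, and to 1 without ING2 siRNA replicate 1, and was 4 without control replicate 1 or ING2 siRNA replicate 2. When the probe sets of each gene were averaged, HLA-DPB1 lost its call (log2 difference -0.32) and HLA-DMA gained one, so that the count stayed at 4. All genes behaved likewise: 924 were called lower with all 6 arrays, and 2 to 3 when 1 of those 4 arrays was left out.

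The differences of the 5 chain genes kept their sign in the same fits. Over the fits that left out 1 array, the log2 difference lay between -0.93 and -0.70 for HLA-DRA, between -0.63 and -0.49 for HLA-DPA1, between -0.65 and -0.48 for HLA-DPB1, between -0.40 and -0.29 for HLA-DMA and between -0.56 and -0.43 for HLA-DMB. All 5 were below 0 in each of the 13 settings that can change a difference, of which 6 left out 1 array and 3 scaled the arrays in another way. CD74 had a difference of 0.03 with arrays centred on their medians, 0.22 with quantile normalization and 0.19 with cyclic loess. RFXAP changed sign with scaling, from 0.08 to -0.01 with quantile normalization and -0.04 with cyclic loess. RFX5, CIITA and RFXANK stayed below 0 under these 3 scalings.

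The bright genes of these arrays had lower values after ING2 siRNA as a whole, so the class II genes were also set against genes of like intensity. HLA-DRA, HLA-DMA and HLA-DRB1 lay in decile 9 by mean intensity, where 11.27% of genes were called lower, 29.9% had lower groups without overlap, and the 5th percentile of the log2 difference was -0.51. HLA-DPA1 lay in decile 10, where the 5th percentile was -0.42. After the median of the genes of the same decile had been subtracted, HLA-DRA was at -0.71, HLA-DPA1 at -0.47, HLA-DPB1 at -0.53, HLA-DMB at -0.46 and HLA-DMA at -0.24. CD74, also bright, was at 0.19 and RFX5 at -0.05. HLA-DRA, HLA-DPA1 and HLA-DPB1 lay beyond the 5th percentile of their deciles, whereas HLA-DMB (-0.48 against -0.53) and HLA-DMA (-0.33 against -0.51) did not.

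**Figure D3:**
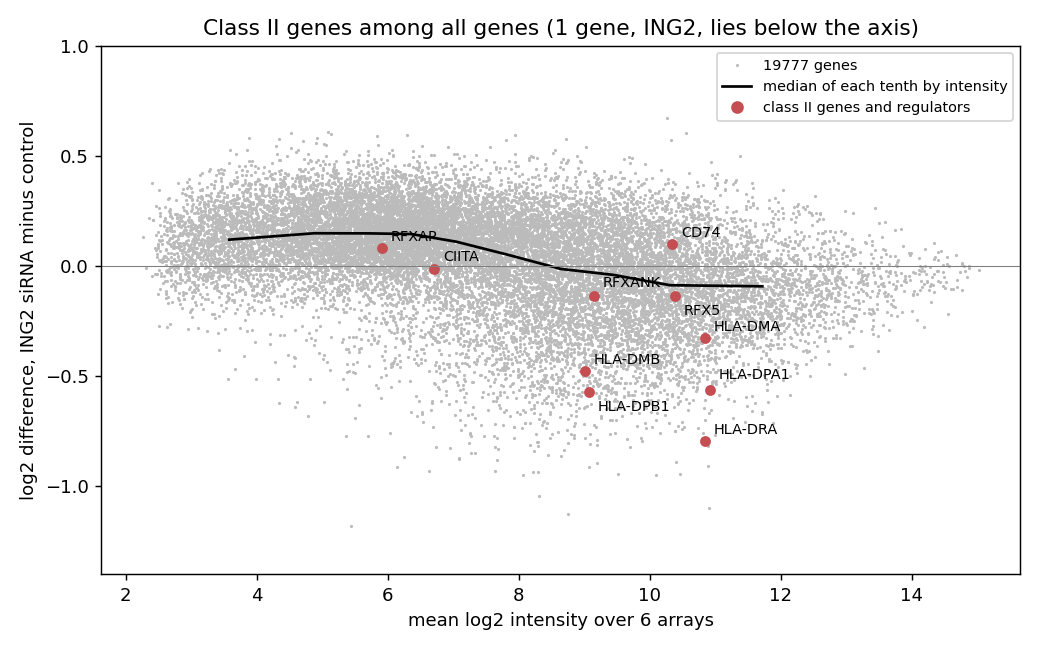
The x axis is mean log2 intensity over 6 arrays and the y axis the log2 difference, ING2 siRNA minus control, for all 19777 genes (grey), with the median of each decile by intensity as a line and the 10 class II genes and regulators labelled. HLA-DRA lies furthest below the line (-0.71 from it) and CD74 above it; ING2 lies below the axis.

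Levels of the other members were compared with those of HLA-DRA over the 6 arrays. The genes were chosen on their group differences, which enter r, so a high r over levels follows in part from that choice. Array-wide shifts are shared between genes as well. Pearson's r of log2 intensity with HLA-DRA was 0.988 for HLA-DMB, 0.984 for HLA-DPB1, 0.963 for HLA-DPA1 and 0.955 for HLA-DMA, against -0.662 for CD74, 0.293 for CIITA, 0.629 for RFX5, -0.237 for RFXAP and 0.531 for RFXANK. After the group means had been removed, r was 0.913 for HLA-DMB, 0.884 for HLA-DPB1, 0.834 for HLA-DMA and 0.707 for HLA-DPA1, against -0.245 for CD74, 0.619 for CIITA, 0.341 for RFXANK, 0.206 for RFXAP and -0.197 for RFX5. The value of CIITA thus lay near that of HLA-DPA1. Each of the 5 chain genes was highest among the ING2 siRNA arrays in replicate 1, and HLA-DRA, HLA-DPA1, HLA-DPB1 and HLA-DMA were lowest among the controls in replicate 2. Of the 9887 brighter genes, 174 had an r over 0.95 with HLA-DRA. The 5 highest were TM2D1 (0.9965), NDUFS4 (0.994), COX6C (0.9927), NDUFB4 (0.9923) and AKIRIN1 (0.9919), none of them a class II gene. With group means removed, 47 genes exceeded 0.95, led by CHMP7 (0.999), APOO (0.9942), NDUFB4 (0.9913), EMC4 (0.9882) and HEBP2 (0.9878). These values are given as a description of 6 arrays.

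Of 11 further class II genes, 8 had a single-gene probe set. HLA-DOB, a chain of HLA-DO, which restrains HLA-DM, rose. It was at 77.6, 78.2 and 73.3 units in controls and at 101.3, 119.4 and 114.3 units after ING2 siRNA, or 146% of control (log2 difference 0.55, SE 0.09, limma adjusted p = 0.0193), higher on 3 of 3 arrays. It is dim, its second probe set read 60.5 units in controls and 60.6 units after ING2 siRNA, and it passed the threshold in 12 of 16 other settings. HLA-DRB1, the usual beta partner of HLA-DRA, was at 2036.2, 1710.1 and 1889.3 units in controls and at 1611.1, 1458.5 and 1369.1 units after ING2 siRNA, or 78.8% of control with no overlap, and missed the threshold (log2 difference -0.34, SE 0.10, limma adjusted p = 0.0538). HLA-DQB1 was at 80.6% of control on the brightest of its 7 probe sets and missed it too (limma adjusted p = 0.0525). That probe set was dim, at 148.3 units in controls. The other HLA-DQB1 probe sets were at 89.3% to 111.9% of control, all with overlapping groups. The log2 difference was 0.04 for HLA-DRB4, -0.003 for HLA-DQA1, 0.17 for HLA-DQB2, 0.10 for HLA-DOA and 0.19 for HLA-DPB2, none past the threshold. The median of the 8 was 0.07, beside 0.065 for all genes, and it ranged from -0.15 to 0.17 over the settings with all arrays, where up to 2 of the 8 were called lower.

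Beta chain genes of the DR group are nearly identical in sequence, and 5 probe sets named several beta chain genes each, so their signal cannot be given to 1 gene. They were tested among the 1801 probe sets that name several genes, of which 2.61% were called lower. Of these, 1 fell, from 1467.2, 1288.7 and 1477.3 units in controls to 1038.1, 928 and 873 units after ING2 siRNA (log2 difference -0.58, SE 0.10, limma adjusted p = 0.0293). The other 4 had log2 differences of -0.48 (limma adjusted p = 0.0566), -0.40 (0.0794), -0.29 (0.0823) and -0.06 (0.788). The last of these was very dim, at 8, 10.5 and 8.2 units in controls and at 8.6, 9.3 and 7.5 units after ING2 siRNA, so nothing is read from its sign. All 5 beta chain probe sets were below 0, and 1 was past the threshold. Each of the 5 names HLA-DRB1, so they are not separate readings of different genes. A probe set for several alpha chain genes was very dim, at 15.4, 12.1 and 15 units in controls, with a log2 difference of 0.11.

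The factors that work beside the RFX complex and CIITA did not all move one way. Of 16 measured partners and coactivators, 2 fell and 1 rose, with a list median of -0.03 against 0.065 for all genes. Over all genes 4.67% were called lower and 3.62% higher, and these shares stand beside the counts of the lists below too. NFYB, a histone-fold subunit of NF-Y at the Y box, fell from 602.3, 686.3 and 618.7 units to 463.1, 527.1 and 456.9 units (log2 difference -0.40, SE 0.09, limma adjusted p = 0.0352). The other NF-Y subunits did not pass: NFYA had a log2 difference of -0.07 and NFYC of -0.15. CREB1, which can bind beside the X box, fell from 760.3, 855.5 and 844.4 units to 612.7, 651.3 and 590.3 units (log2 difference -0.41, SE 0.08, limma adjusted p = 0.0301). NCOA1, a histone acetyltransferase coactivator of nuclear receptors, rose from 596, 575.6 and 556.9 units to 714.7, 693.7 and 722.9 units (log2 difference 0.30, SE 0.08, limma adjusted p = 0.043). For all 3 the groups did not overlap. NFYB and CREB1 passed in 12 of 17 other settings and NCOA1 in 11, and NFYB missed the threshold under quantile normalization.

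Of 17 measured genes of class II antigen processing, 1 fell and none rose (5 lower and 1 higher at an unadjusted limma p under 0.05, where 13.6% and 19.4% of all genes were), with a list median of -0.03. From 0 to 5 were called lower over the settings with all arrays, with 5 when probe sets were averaged and 4 with the most variable probe set. The list median was 0.08 under both quantile normalization and cyclic loess. CTSV, a lysosomal cysteine protease related to cathepsin L, fell from 459.1, 423.7 and 432.1 units to 361.2, 322.7 and 337 units (log2 difference -0.37, SE 0.08, limma adjusted p = 0.0339), and passed in 11 of 17 other settings, not under quantile normalization or cyclic loess. Of 12 measured repressors of class II genes or CIITA, none passed in either direction, and at an unadjusted limma p under 0.05 there were 5 higher and 1 lower. The list median was 0.10. With quantile normalization, array weights, averaged probe sets or only the brighter genes, 2 repressors were called higher. RFX1, a family member of RFX5, had a log2 difference of 0.30 (limma adjusted p = 0.0643). SIN3B, a scaffold of the deacetylase complexes in which ING2 takes part, was at 434.9, 425.4 and 382.7 units in controls and at 469.6, 504.9 and 570.3 units after ING2 siRNA (log2 difference 0.31, limma adjusted p = 0.0661). The log2 difference was 0.20 for SIN3A, -0.04 for HDAC1 and -0.32 for HDAC2 (limma adjusted p = 0.113), so none of these complex members passed.

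The interferon gamma pathway, which induces CIITA, had no call among 20 measured genes, beside 3.62% of all genes called higher and 4.67% lower. At an unadjusted limma p under 0.05, 2 were higher and 3 lower (19.4% and 13.6% of all genes). The list median was 0.03. WARS1, an interferon-induced tRNA synthetase, had a log2 difference of 0.32 (limma adjusted p = 0.0511). PTPN11, the phosphatase SHP2, had one of -0.37 (limma adjusted p = 0.0541). IRF1, the transcription factor that acts on the CIITA promoter, was at 758.7, 696.1 and 709.4 units in controls and at 798.8, 802.9 and 813.3 units after ING2 siRNA (log2 difference 0.16, limma adjusted p = 0.181). MHC class I presentation also had no call among 19 measured genes, with 2 higher and 3 lower at an unadjusted limma p under 0.05 and a list median of 0.03. B2M, the light chain of class I, had a log2 difference of -0.24 (limma adjusted p = 0.0661), PDIA3, a chaperone of class I folding, had -0.27 (limma adjusted p = 0.0861), and HLA-B and HLA-C had 0.04 each. Over the settings with all arrays, up to 2 interferon gamma genes were called higher and up to 4 lower, and up to 1 class I gene higher and up to 3 lower. Without control replicate 1 the interferon gamma list had 4 genes called lower and 1 higher, without ING2 siRNA replicate 2 it had 2 lower and 1 higher, and without control replicate 1 the class I list had 1 lower and the repressors 1 in each direction. That the class II chains differed from these lists was not tested.

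**Figure D4:**
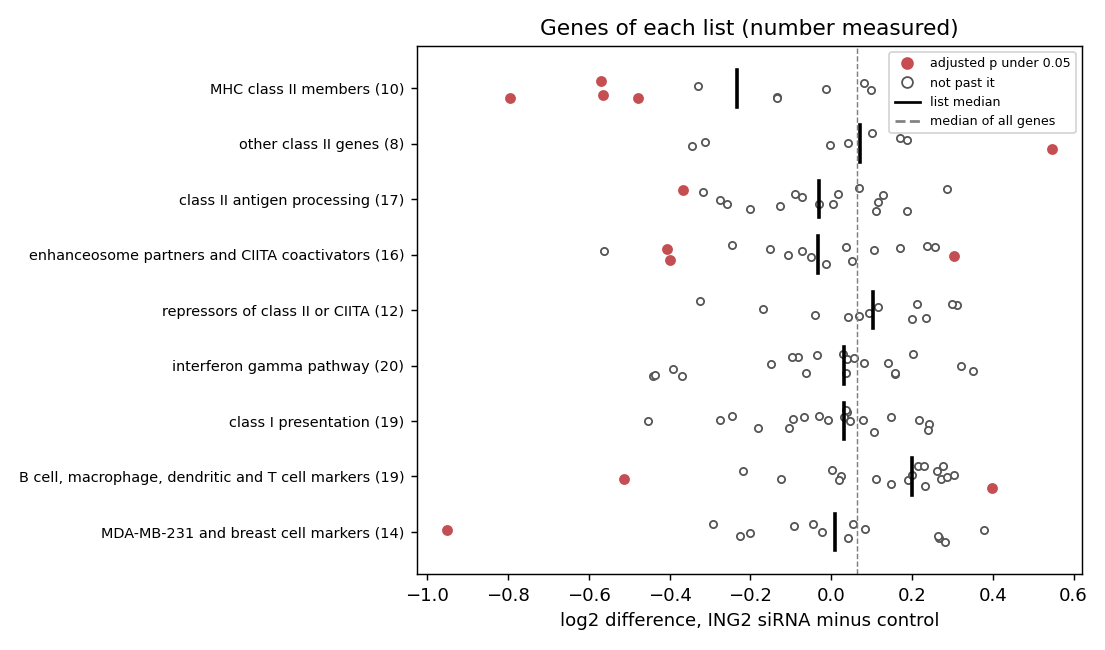
The x axis is the log2 difference, ING2 siRNA minus control, of each measured gene in the lists on the y axis; filled points passed an adjusted p of 0.05, bars are list medians and the dashed line is the median of all genes, 0.065. The class II members, chosen on these values, have a median of -0.23, and the other lists lie between -0.03 and 0.20.

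Class II genes are markers of B cells, macrophages and dendritic cells, so the markers of these and of T cells were read as well. Of 22 listed, 19 were measured, none of them at 0, with a median at the 35.6th percentile of intensity. At an unadjusted limma p under 0.05, 8 were higher and 1 lower (19.4% and 13.6% of all genes). Groups did not overlap for 8 in the higher direction and 1 in the lower (22.8% and 13.8% of all genes). The summed level of the 19 was 1620 to 1714 units on the control arrays and 1668 to 1931 units on the ING2 siRNA arrays, and the list median was 0.20. That median was 0.11 with cyclic loess and 0.13 with median centring, and 0.055 after the median of genes of like intensity had been subtracted. PTPRC, the pan-leukocyte marker CD45, was near the bottom of the array's range at 17.1 units in both groups, and the B cell marker MS4A1 was at 45.4 units in controls. CD79A, a B cell receptor chain, rose (131.5 to 173.4 units, limma adjusted p = 0.0329), and LYZ, the macrophage enzyme lysozyme, fell (47.5 to 33.3 units, limma adjusted p = 0.0487). Both are dim. CD79A passed in 12 of 16 other settings and LYZ in 9 of 15, not with averaged probe sets or a pseudocount of 16. CD14 was the brightest of the list at 361 units in controls and 310.2 units after ING2 siRNA, with overlapping groups. Among 14 markers of the line and of breast cells, 1 fell and none rose (2 lower and 4 higher at an unadjusted limma p under 0.05), and up to 3 were called higher over the settings with all arrays. EPCAM, an epithelial adhesion molecule, fell to 51.8% of control (limma adjusted p = 0.0133). Each of HLA-DOB, CTSV, NFYB, CREB1, NCOA1, CD79A, LYZ and EPCAM passed in 2 of the 6 fits that left out 1 array, those without control replicate 1 or ING2 siRNA replicate 2, and in none of the other 4. The part of the cell type markers in the class II differences was not tested.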

How the data were processed

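For each of 6 arrays the deposited table holds linear intensity per probe set. The submitters' processing notes list RMA and R 2.12. Not given in the sources used here were the background correction, the filters and the step to linear values. Then log2 of the deposited intensity was taken with no pseudocount. Of 54675 probe sets, 62 controls were left out, 41091 named 1 gene, 1801 several and 11721 none, through a platform annotation of 2016 with symbols from RefSeq. Each gene was represented by its probe set of highest mean. Groups were compared with limma 3.58.1 (lmFit, eBayes) in R 4.3.3, without covariate, and p-values were Benjamini-Hochberg adjusted over all 19777 genes (threshold 0.05). With 3 against 3 arrays an exact permutation test cannot go below p = 0.1.

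The class II genes, the gene lists and the naming rule were chosen with earlier results of these data known. The rule names every class II gene and regulator, ING2, in each other list the genes past the threshold or else the 2 with the smallest p, other class II genes, SIN3-HDAC members, IRF1, HLA-B, HLA-C, and the genes most like HLA-DRA. NFYA, NFYC, VIM, ESR1, PTPRC, MS4A1 and CD14 were added after their values were seen. Of 150 listed genes, 15 were not analysed here. Alternatives were other scalings, filters on dim genes, other probe set rules, variance models, a pseudocount of 16, a threshold of 0.01, the replicate block and leaving out each array; subtracting the median of genes of like intensity was added after seeing the data.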

Additional observations from a re-analysis of the deposited data

How the results depend on the processing

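The count of 4 class II genes called lower became 0 at an adjusted p under 0.01, and ranged from 0 to 4 when 1 array was left out; the count of 0 called higher became 1 (CIITA) when each gene was read from its most variable probe set (by interquartile range). HLA-DMA, not called, was called in 8 of 12 other settings with all arrays. Over all genes, 716 were called higher and 924 lower. At 0.01 these were 0 and 2, with array weights 1927 and 1931, with all probe sets of a gene averaged 1229 and 1391, taking the most variable probe set 1307 and 1953, and with median centring 260 and 1450. Cyclic loess gave 447 higher and 686 lower, quantile normalization 944 higher and 623 lower, and a robust intensity trend 1436 lower. Without 1 array the counts ranged from 0 to 1227 higher and from 2 to 1631 lower. Single-gene probe sets called higher numbered 896, and 465 with cyclic loess. Same-numbered arrays had deviations that correlated at 0.26, 0.29 and -0.02, which cannot show whether the numbers pair the samples. With the replicate block 1630 genes were called higher, 1878 lower and 5 class II genes lower. The cause of these changes was not tested. Of the class II genes and regulators, RFXAP and CIITA, both dim, changed sign in some settings (CIITA was below 0 in 9 of the 13 that can change a difference), and the other 8 and ING2 in none. Dim probe sets (CIITA, RFXAP, HLA-DOB) limit what can be read from them.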
